A study of Ovis aries with 16 samples.

Results

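The genes described here are 7 that mark the blood-brain barrier and the identity of vessels: the drug pumps ABCB1 and ABCG2, the tight junction gene OCLN, the endothelial surface genes PECAM1 and TIE1, and the receptors KDR and FLT1 for vascular endothelial growth factor (VEGF). They were taken by name, either the name that the array's files give a probe or the sheep gene to which the probe's accession or gene ID leads, and 13 of the 15008 probes on the array measure them. A name could be given to 1593 probes in all, which stand for 986 genes. The RNA came from the frontal cortex of 16 chronically catheterized sheep fetuses late in gestation, with 1 array per fetus. In the normoxia control group (n = 3) the ewe breathed room air for the 30 min of the experiment, and in the hypoxia control group (n = 5) nitrogen was run into the ewe's trachea for those 30 min. The normoxia + ketamine group (n = 4) and the hypoxia + ketamine group (n = 4) had the same treatments after an intravenous dose of 3 mg/kg ketamine, an anaesthetic that blocks NMDA-type glutamate receptors, given to the fetus. Brains were taken 24 h after the onset of the stimulus, which left 23.5 h of recovery. The fetuses were twins except for 1 singleton, and since the labels do not say which of them shared a ewe, every test counts each fetus as independent. The labels of hypoxia control replicate 1 disagree. Its title names hypoxia control, the group kept here, while its source name and its characteristics give normoxia + ketamine.

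Endothelial cells of brain capillaries close the gaps between them with tight junctions, strands of transmembrane proteins such as occludin (the product of OCLN) and the claudins, so that most substances can enter the brain only through the cells. On the side of the blood those cells carry the pumps P-glycoprotein (ABCB1) and breast cancer resistance protein (ABCG2), which return drugs and other lipid-soluble compounds to the circulation. Vessels grow in response to VEGF, which hypoxia induces in many tissues. VEGF signals mainly through VEGF receptor 2 (KDR), while VEGF receptor 1 (FLT1) also binds it and can act as a decoy. PECAM1 is an adhesion molecule of the junctions between endothelial cells and is also found on leukocytes and platelets, and TIE1 is an endothelial receptor that works with the angiopoietin receptor TEK. Occludin is also found in other epithelia and cells, the choroid plexus among them.

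The sequences of the probes are given for the genes on which the results turn, because each value below is the brightness of such a 60-base probe and not of a whole transcript. Capitals mark the run of bases that a probe shares with its partner for the same gene, and a sequence wholly in lower case has no such partner. OCLN had a single probe, so that no other probe checks its values, and the files do not place it within the gene. The ABCB1 probes overlap by 40 bases. The pair of KDR probes listed here has no common run with each other, although both were designed on the same transcript. The FLT1 probes differ by a shift of 1 base, and only the brighter of them is listed. The VEGFR-1 probes, which the files name after VEGF receptor 1 without tying them to the FLT1 entry of the reference table, overlap by 39 bases.
OCLN probe A_70_P026096: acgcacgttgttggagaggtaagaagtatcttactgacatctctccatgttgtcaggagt
ABCB1 probe A_70_P030012: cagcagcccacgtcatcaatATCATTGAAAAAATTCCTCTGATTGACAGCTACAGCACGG
ABCB1 probe A_70_P030011: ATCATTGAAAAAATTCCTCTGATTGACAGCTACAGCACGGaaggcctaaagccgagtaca
KDR probe A_70_P041631: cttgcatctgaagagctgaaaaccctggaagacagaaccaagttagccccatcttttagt
KDR probe A_70_P041632: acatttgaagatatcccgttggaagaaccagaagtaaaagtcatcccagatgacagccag
FLT1 probe A_70_P026322: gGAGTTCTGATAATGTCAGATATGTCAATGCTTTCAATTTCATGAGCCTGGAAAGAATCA
VEGFR-1 probe A_70_P026601: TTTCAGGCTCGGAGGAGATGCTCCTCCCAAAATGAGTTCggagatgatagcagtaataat
VEGFR-1 probe A_70_P026602: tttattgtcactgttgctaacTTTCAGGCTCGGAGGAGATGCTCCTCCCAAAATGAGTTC

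Values are log2 intensities after background correction, addition of an offset of 50 and quantile normalization. A difference of 1 on that scale is a doubling of the intensity with the offset included. For dim probes it is therefore more than a doubling of the signal itself. The scanner's flag marked 69.2 to 76.9% of spots per array as well above background. ABCB1, ABCG2, OCLN, PECAM1 and TIE1 were well above background on all 16 arrays, and so was 1 of the 4 KDR probes. The brighter FLT1 probe reached that mark on 9 arrays and its partner on 2, so that these probes measured near their limit. Of 13 endothelial marker genes listed, 4 have a named probe, namely PECAM1, TIE1, KDR and FLT1, and their mean log2 level lay between 7.98 and 8.30 in every fetus. limma's moderated test compared the groups, and calls were made below an unadjusted P of 0.05, the threshold of the study's methods. After Benjamini-Hochberg adjustment over 15008 probes no probe was left in any comparison, and the lowest adjusted P was 0.317 for hypoxia control minus normoxia control, 0.263 for hypoxia + ketamine minus hypoxia control and 0.734 for the interaction, so each call below is an unadjusted one.

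OCLN, the tight junction gene, fell after hypoxia and was higher when ketamine preceded the hypoxia. Its log2 intensity was 8.19, 8.06 and 8.09 in the normoxia controls. Ketamine in normoxia left it at 7.86, 8.04, 8.11 and 8.02. The hypoxia controls read 7.90, 7.56, 7.89, 7.28 and 8.05. The 5 hypoxia controls were all below the 3 normoxia controls, but the nearest of them, 8.05, lay only just under the lowest normoxia control. The fetuses given ketamine before hypoxia read 8.49, 7.94, 8.22 and 8.01. Ordered by group mean, hypoxia + ketamine (8.17 ± 0.25, SD, n = 4) came first, followed by normoxia control (8.11 ± 0.071, SD, n = 3), normoxia + ketamine (8.01 ± 0.11, SD, n = 4) and hypoxia control (7.74 ± 0.31, SD, n = 5). The first 3 means in that order were closer to each other than the SD within hypoxia + ketamine. Because the RNA is from whole tissue, fewer cells of a type and less RNA per cell cannot be told apart.

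**Figure D1:**
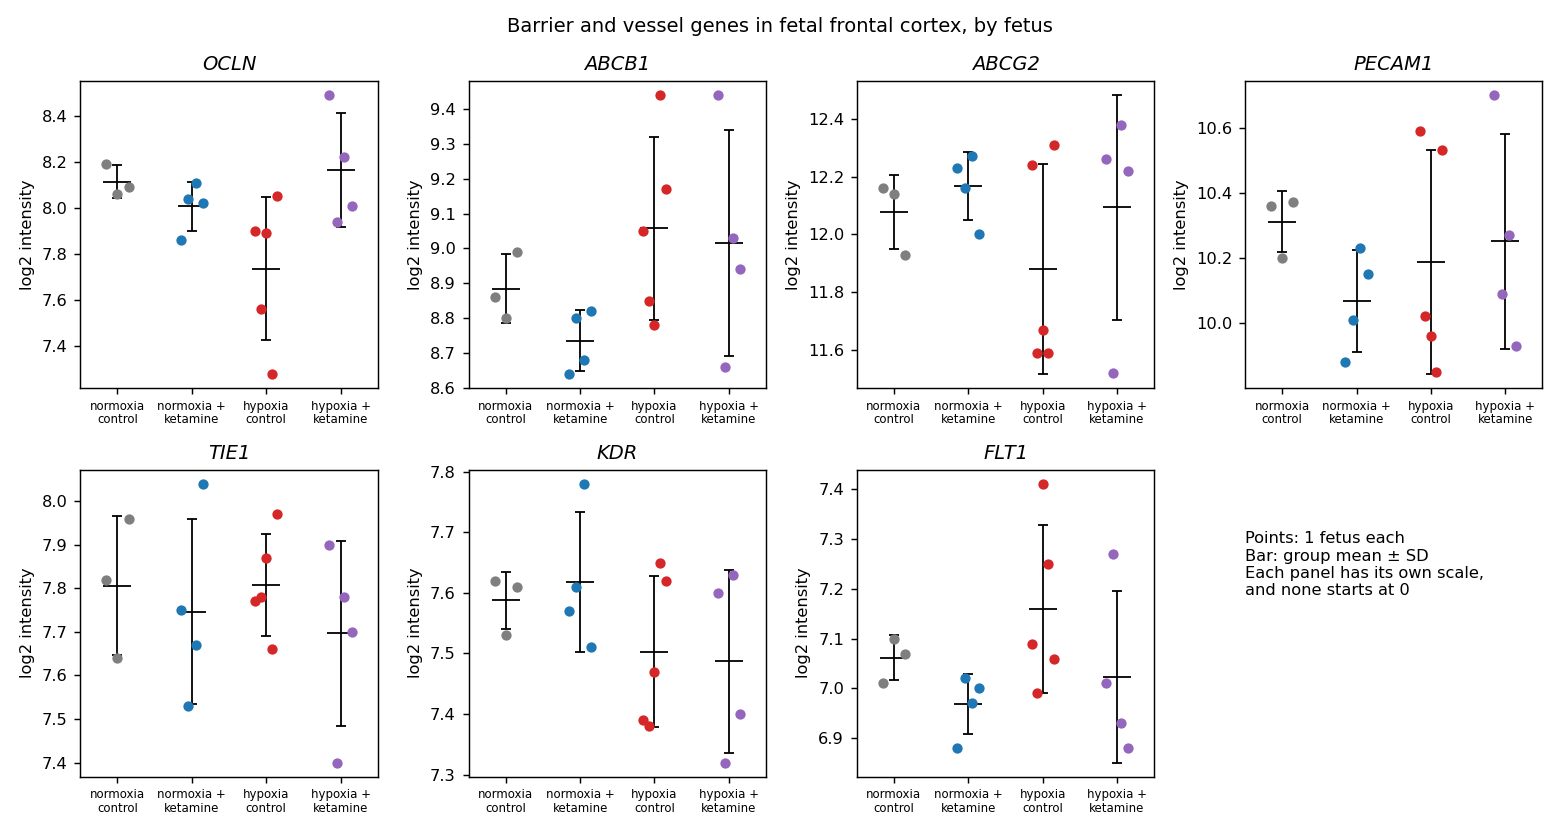
Log2 intensity (vertical axis, a separate scale in each panel, not starting at 0) of the 7 genes in each of the 16 fetuses (points) by group, with the group mean and SD as bars. The 5 OCLN values of hypoxia control lie between 7.28 and 8.05, under the 3 normoxia controls at 8.06 to 8.19, while the groups of the other 6 genes overlap.

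Hypoxia without ketamine lowered OCLN by a log2 difference of -0.38 (SE 0.15, 95% interval -0.71 to -0.048), or 0.770 times the normoxia control level with the offset included. The difference had limma P = 0.0276, an adjusted P of 0.580 and an exact two-sided permutation P = 0.0357 over fetuses. That exact value is the smallest that 5 against 3 fetuses allow. Counted by the brightest probe of each gene, OCLN was the only 1 of the 7 genes called in this comparison. In it 7.98% of all probes were called, and 1 of 7 is near that background. The groups did not overlap for OCLN, as for 5.37% of the probes without a missing value. The difference was -0.40 among the arrays of slide 1 (2 against 2) and -0.34 among those of slide 2 (3 against 1). Slide 2 holds 1 normoxia control, so each slide 2 difference from normoxia control, here and below, rests on that array. It was no longer called without normoxia control replicate 1 (-0.34), normoxia control replicate 3 (-0.39), hypoxia control replicate 2 (-0.33) or hypoxia control replicate 4 (-0.26). The call was also lost with only the compared groups in the fit, where limma's P was just above the threshold. Scaling the mean spot signal to the 75th percentile lost it too, with (-0.58) or without (-0.31) background correction. The scanner software's processed signal, used without the offset, gave a larger difference, -0.75 after quantile normalization and -0.67 after scaling to the 75th percentile.

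Hypoxia + ketamine minus hypoxia control gave OCLN a log2 difference of 0.43 (SE 0.14, 95% interval 0.13 to 0.73), that is 1.35 times the level with the offset included. The difference had limma P = 0.00865, an adjusted P of 0.472 and an exact permutation P = 0.0476. The groups overlapped, since 2 of the 4 treated fetuses, at 7.94 and 8.01, lay under the highest hypoxia control at 8.05. No other of the 7 genes was called, against 9.06% of all probes, and none of the 7 had groups without overlap, as 2.34% of probes did. The difference was 0.49 within slide 1 and 0.37 within slide 2. It was called in each of the 16 fits that left out 1 array, with values between 0.32 and 0.51. With the processed signal it was 0.82 or 0.76, depending on the scaling. With background correction and scaling of the mean spot signal to the 75th percentile it was 0.67 and not called. This comparison shares the hypoxia controls with the one before it, so that a low value in that group enters both.

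Without hypoxia the ketamine difference of OCLN was -0.11 (95% interval -0.45 to 0.24, exact permutation P = 0.229). The change with ketamine after hypoxia exceeded that after normoxia by 0.54 on the log2 scale (SE 0.21, 95% interval 0.077 to 0.99), an interaction with limma P = 0.0251 over the whole fit (n = 16) and an adjusted P of 0.752. For the interaction 6.35% of all probes were called, and OCLN was the only gene of the 7. The interaction was not called without normoxia control replicate 1 or without hypoxia + ketamine replicate 1. With the processed signal it was 1.03 or 0.94, depending on the scaling. With background correction and scaling of the mean spot signal to the 75th percentile it was 1.15 and not called. Among ketamine fetuses, hypoxia minus normoxia was 0.16 for OCLN (95% interval -0.16 to 0.48, exact permutation P = 0.314), and 0.049 without hypoxia + ketamine replicate 1.

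**Figure D2:**
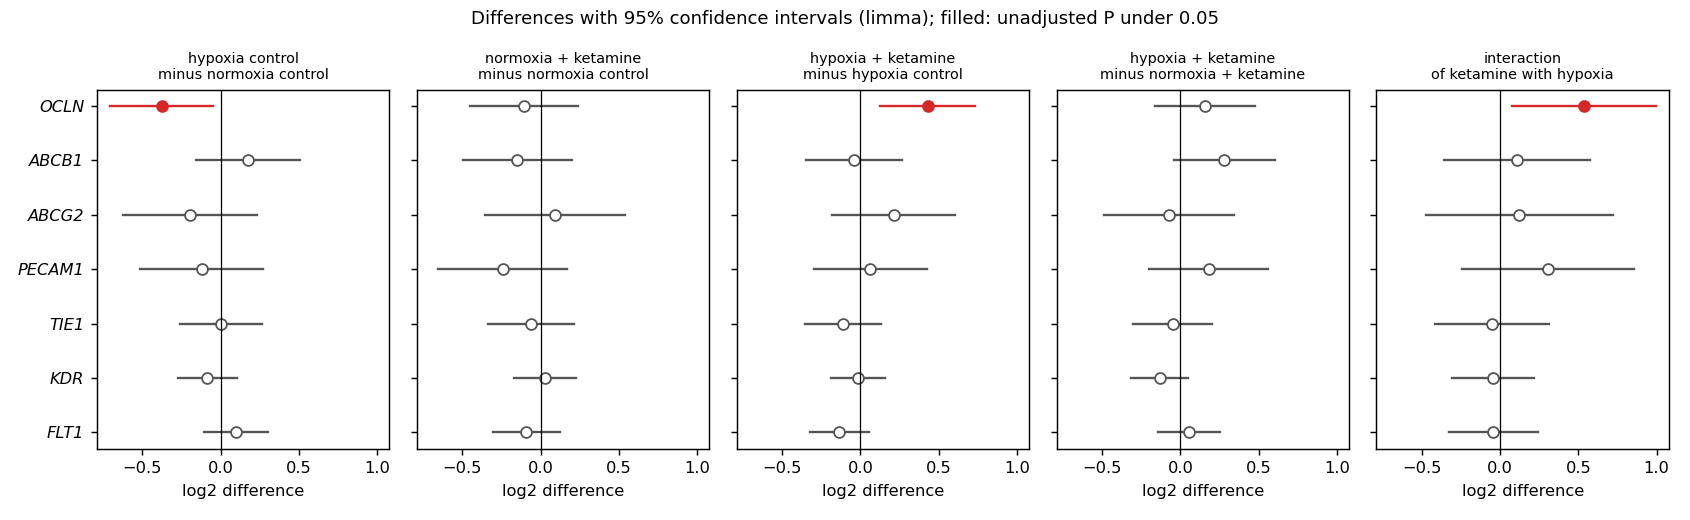
Log2 difference (horizontal axis) of each of the 7 genes in the 4 comparisons and the interaction, with 95% confidence intervals from limma and filled symbols for an unadjusted P under 0.05. OCLN is filled at -0.38, 0.43 and 0.54, and the intervals of the other 6 genes include 0 in each panel.

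Normoxia + ketamine minus normoxia control and hypoxia + ketamine minus normoxia + ketamine called none of the 7 genes, where 2.31% and 6.86% of all probes were called. In the latter none of the 7 had groups without overlap either, as 3.54% of probes did. Over the 7 genes the median log2 difference was -0.085 for hypoxia control minus normoxia control, -0.093 for ketamine in normoxia, -0.016 for ketamine after hypoxia and 0.054 for hypoxia + ketamine minus normoxia + ketamine. The medians over the 986 named genes were 0.0051, 0.0097, -0.0024 and -0.010. In hypoxia control minus normoxia control 3 of the 7 genes were higher and 4 lower, and in hypoxia + ketamine minus hypoxia control the same counts were found. Ketamine in normoxia had 2 higher and 5 lower, and hypoxia + ketamine minus normoxia + ketamine 4 higher and 3 lower.

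**Figure D3:**
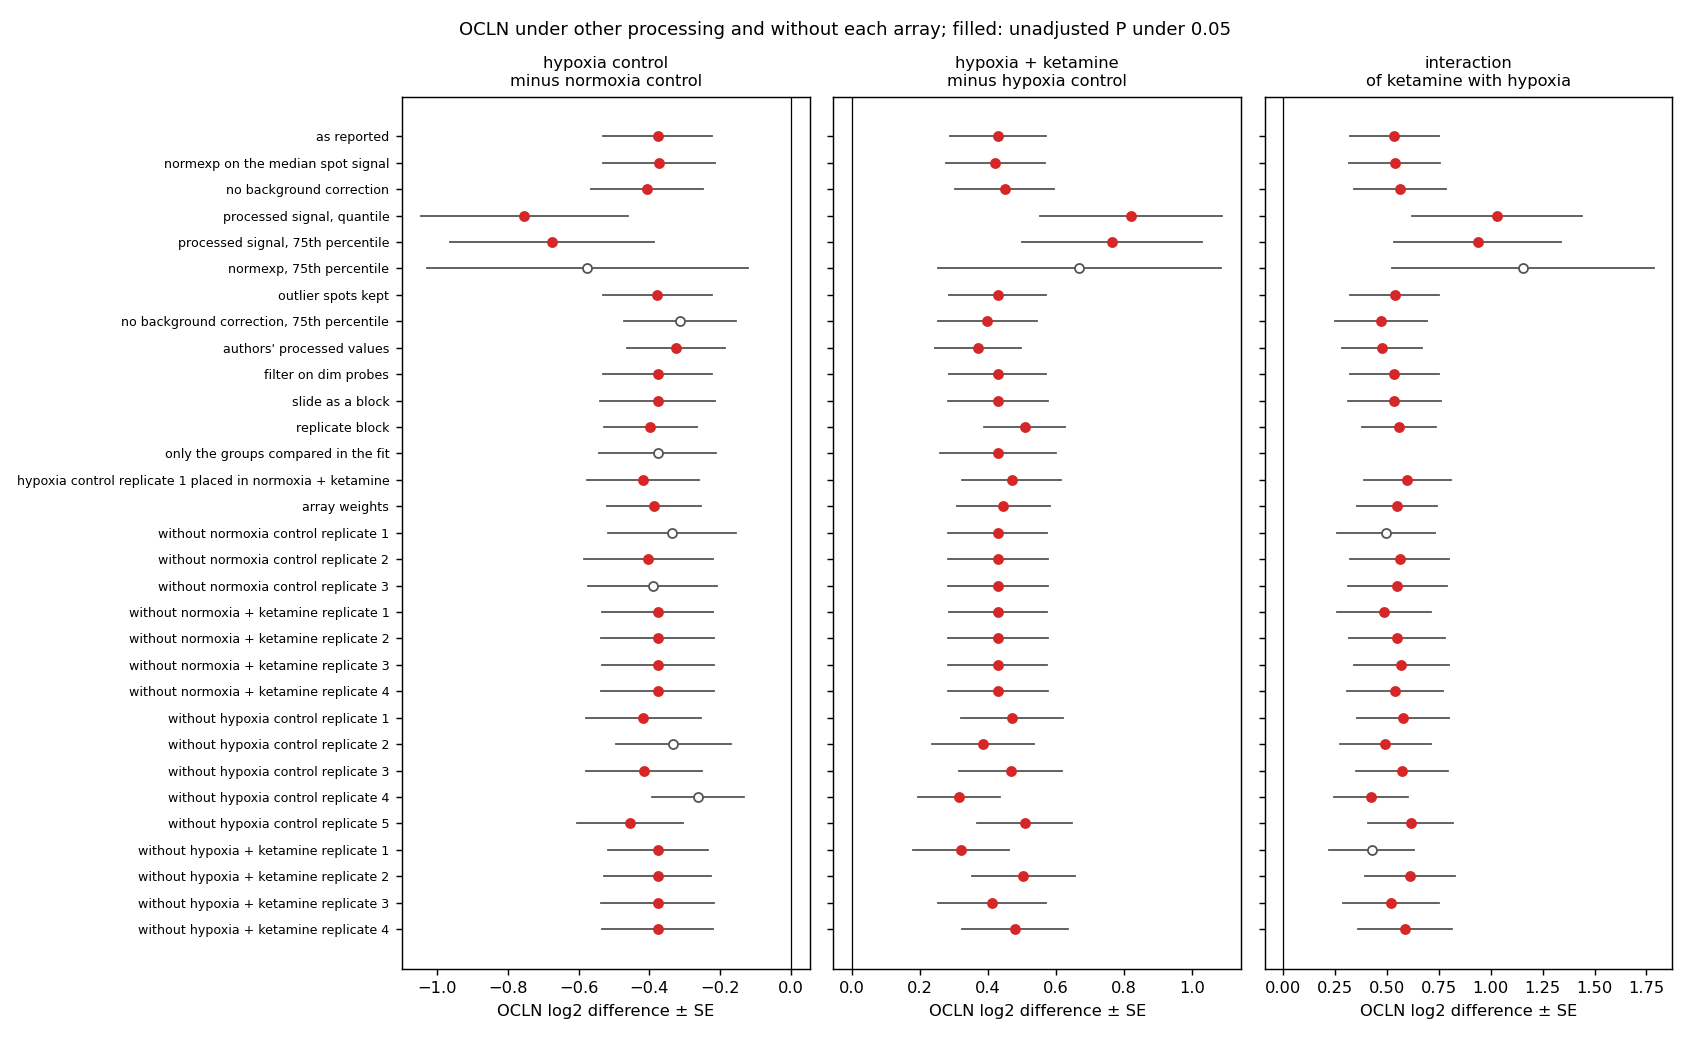
Log2 difference of OCLN ± SE (horizontal axis) in 2 comparisons and the interaction, as reported (top) and under each other processing or without each array, with filled symbols for an unadjusted P under 0.05. The sign was the same in each setting shown, and the symbols for hypoxia control minus normoxia control lie between -0.75 and -0.26.

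Of the 32 junction genes listed, 6 have a named probe, and besides OCLN only GJA4, a gap junction gene of arterial endothelium, was called. GJA4 fell after hypoxia by 0.22 on the log2 scale (SE 0.10, limma P = 0.0438, adjusted P = 0.616, exact permutation P = 0.143), from 8.56 ± 0.087 (SD) in normoxia control to 8.33 ± 0.20 in hypoxia control. With ketamine after hypoxia it was 8.52 ± 0.10, a difference of 0.19 with an exact permutation P = 0.143. CLDN3 and CLDN1, further claudin genes of tight junctions, differed by -0.0060 and 0.0093 between hypoxia control and normoxia control (exact permutation P = 0.786 and P = 1). The junctional adhesion molecule F11R, well above background on 2 arrays, differed by -0.00050. GJA1, a gap junction gene found mostly in astrocytes, differed by 0.086. So 2 of the 6 junction genes were called after hypoxia, both lower, where 7.98% of all probes were called, and 4 of the 6 were lower and 2 higher by sign. With ketamine after hypoxia 1 of the 6 was called, where 9.06% of all probes were. The 6 genes' median difference after hypoxia was -0.0033, close to the median of the named genes.

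ABCB1, which encodes the drug pump P-glycoprotein, was not called in any comparison. Its log2 intensity on the brighter probe was 8.86, 8.80 and 8.99 for the normoxia controls, against 8.64, 8.80, 8.68 and 8.82 with ketamine. The hypoxia controls read 9.05, 8.85, 8.78, 9.44 and 9.17, against 9.44, 8.66, 9.03 and 8.94 with ketamine. The fetuses that had hypoxia were more spread (SD 0.26 and 0.32) than those that had not (SD 0.099 and 0.087), and the highest value was 9.44 in each hypoxia group. Hypoxia control minus normoxia control was 0.17 (95% interval -0.16 to 0.51, exact permutation P = 0.357, and 0.078 without hypoxia control replicate 4), and ketamine after hypoxia differed by -0.041 (95% interval -0.35 to 0.27). The largest difference was hypoxia + ketamine minus normoxia + ketamine at 0.28 (95% interval -0.042 to 0.60, limma P = 0.0833, exact permutation P = 0.143). Without hypoxia + ketamine replicate 2, whose value of 8.66 was the lowest of its group, that difference was 0.40 and was called, and without hypoxia + ketamine replicate 1 it was 0.14.

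The other ABCB1 probe, which shares 40 bases with the first, correlated with it over the 16 arrays at Pearson r = 0.895, given as a description. Its hypoxia control minus normoxia control difference was smaller, 0.050 against 0.17, and had opposite signs on the slides (-0.065 and 0.12). With ketamine after hypoxia it differed by 0.020 where the brighter probe had -0.041, and neither probe was called. On it the normoxia controls read 8.30, 8.23 and 8.27, and the normoxia + ketamine fetuses read 7.97, 8.12, 8.21 and 8.10. These groups did not overlap, as for 4.43% of probes, but the difference of -0.16 was not called, and the exact permutation P of 0.0571 is the smallest that 4 against 3 fetuses allow. On the brighter probe the same difference was -0.15, with overlap.

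ABCG2, the gene of the other drug pump, was not called either. Its values were 12.16, 12.14 and 11.93 for the normoxia controls, and with ketamine they were 12.23, 12.16, 12.27 and 12.00. The hypoxia controls were split, with 3 fetuses at 11.59, 11.67 and 11.59 and the remaining fetuses at 12.24 and 12.31. In hypoxia + ketamine 1 fetus was at 11.52 and the others at 12.26, 12.38 and 12.22. Every ABCG2 value under 11.9, a limit just below the lowest normoxia value of 11.93, thus came from a fetus that had hypoxia. The other 5 of the 9 such fetuses were between 12.22 and 12.38, within or just above the range of the normoxia fetuses. Hypoxia control minus normoxia control was -0.20 (95% interval -0.62 to 0.23, exact permutation P = 0.357), and ran from -0.30 to -0.12 with 1 array left out. The difference of hypoxia + ketamine minus hypoxia control was 0.21 (95% interval -0.18 to 0.61, exact permutation P = 0.571). Within slides this difference was -0.029 on slide 1 and 0.44 on slide 2. Without hypoxia + ketamine replicate 2, the fetus at 11.52, that difference was 0.40 and was called, and the other fits with 1 array left out gave 0.12 to 0.32. The value of 0.12 was that without hypoxia + ketamine replicate 3. The SD within groups pooled over the 4 groups was 0.30 for ABCG2, higher than that of 91.5% of the probes on the array.

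Of 38 barrier transporter and receptor genes listed, 5 have a named probe, and none of the 5 was called in any comparison, beside 2.31 to 9.06% of all probes. SLC16A1, which encodes the monocarboxylate carrier MCT1 of brain endothelium, had a difference of 0.24 between hypoxia control and normoxia control (exact permutation P = 0.214). CAV1, the gene of the caveolae protein caveolin-1, was 0.25 higher in hypoxia + ketamine than in hypoxia control (exact permutation P = 0.175).

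PECAM1, the junctional adhesion gene of endothelium, had log2 intensities of 10.36, 10.20 and 10.37 in the normoxia controls, and of 9.88, 10.01, 10.23 and 10.15 where ketamine was given in normoxia. The hypoxia controls were at 10.59, 10.02, 9.96, 9.85 and 10.53, and the ketamine fetuses that had hypoxia were at 10.70, 10.09, 10.27 and 9.93. Hypoxia controls 1 and 5, the pair at the top here, were also the pair at the top for ABCG2. The means of 10.31 ± 0.094, 10.07 ± 0.16, 10.19 ± 0.34 and 10.25 ± 0.33 (SD) were closer to each other than the wider group SDs. Ketamine in normoxia differed by -0.24 (95% interval -0.65 to 0.17, exact permutation P = 0.114). With only those groups in the fit, whose values varied little, the same difference was called. Hypoxia control minus normoxia control was -0.12 (95% interval -0.52 to 0.27), and the interaction was 0.30 and not called. With 1 array left out the former ran from -0.22 (without hypoxia control replicate 1) to -0.037 (without hypoxia control replicate 4), and the latter from 0.15 (without hypoxia + ketamine replicate 1) to 0.41.

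TIE1, the endothelial receptor gene, was not called in any comparison. Normoxia controls read 7.82, 7.64 and 7.96, and ketamine fetuses in normoxia read 7.75, 7.53, 7.67 and 8.04. Hypoxia controls read 7.77, 7.78, 7.87, 7.66 and 7.97, and ketamine fetuses after hypoxia read 7.90, 7.40, 7.78 and 7.70. On this probe the group means spanned 0.11, less than the SD within groups of 0.18, and hypoxia control minus normoxia control was 0.0027 (95% interval -0.26 to 0.26). The interval still leaves room for a change of that size. The other TIE1 probe, shifted by 1 base, correlated with it at r = 0.623, had group means that spanned 0.27 and gave -0.27 for hypoxia + ketamine minus normoxia + ketamine (exact permutation P = 0.229). The partner receptor has a probe that the files name tie2, which was not well above background on any array (6.56 to 6.97), while the probes of LOC443516, described in the files as a tie-2 receptor, were so on 9 and 7 arrays and were not called.

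KDR, the main signalling receptor of VEGF, was not called on its brightest probe. The normoxia controls read 7.62, 7.53 and 7.61 on it, and the hypoxia controls 7.39, 7.38, 7.47, 7.65 and 7.62. With ketamine the values were 7.57, 7.61, 7.78 and 7.51 in normoxia, and 7.60, 7.32, 7.63 and 7.40 after hypoxia. Of the 5 hypoxia controls, 3 lay under all normoxia controls and the remaining pair did not. The difference was -0.085 (95% interval -0.27 to 0.10, exact permutation P = 0.321), and after ketamine it was -0.13 for hypoxia minus normoxia (95% interval -0.31 to 0.051, exact permutation P = 0.257). On the probe A_70_P041632 KDR was lower in hypoxia control than in normoxia control by 0.18 on the log2 scale.

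That second KDR probe read 7.27, 7.16 and 7.35 in normoxia control and 7.00, 7.01, 7.10, 7.19 and 7.13 in hypoxia control, so that 1 hypoxia control lay above the lowest normoxia control. Its log2 difference was -0.18 (SE 0.076, 95% interval -0.34 to -0.013), with limma P = 0.0359, adjusted P = 0.604 and exact permutation P = 0.0714, and it was well above background on 12 arrays. The call was lost without normoxia control replicate 1 (-0.17) or 3 (-0.13) and without hypoxia control replicate 1 (-0.15) or 2 (-0.16). The other KDR probes, which share 40 bases with each other, gave -0.092 and -0.027 (exact permutation P = 0.464 and P = 0.75). All 4 differences were below 0, and 1 of the 4 probes was called, where 7.98% of all probes were. Over the 16 arrays the 4 probes correlated with each other between r = -0.18 and r = 0.79, which is a loose match for probes of a single gene.

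FLT1, the gene of VEGF receptor 1, was not called in any comparison on its named probes, which lay near background. On the brighter probe the normoxia controls were at 7.01, 7.10 and 7.07, against 6.88, 7.02, 6.97 and 7.00 after ketamine. The hypoxia controls were at 7.09, 6.99, 7.41, 7.25 and 7.06, against 7.01, 7.27, 6.93 and 6.88 after ketamine. The highest readings were those of hypoxia controls 3 and 4 and hypoxia + ketamine 2, and every group overlapped with every other. Hypoxia control minus normoxia control was 0.097 (95% interval -0.11 to 0.30), with -0.020 on slide 1 and 0.17 on slide 2. With 1 array left out it ran from 0.036 to 0.14. The difference of hypoxia + ketamine minus hypoxia control was -0.14 (95% interval -0.32 to 0.052, exact permutation P = 0.286). Within slides this difference was 0.10 on slide 1 and -0.33 on slide 2, so the slides pointed in opposite directions. Without hypoxia + ketamine replicate 2 it was -0.22 and was called, and without hypoxia control replicate 3 it was -0.074.

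The files hold 3 more probes under older names of VEGF receptor 1, which are not counted among the 13, and 2 of them, FLT-1 and the brighter VEGFR-1 probe, were well above background on all 16 arrays. The probe named FLT-1 was called lower in hypoxia + ketamine than in hypoxia control, by 0.18 on the log2 scale (SE 0.081, P = 0.0415, adjusted P = 0.546, exact permutation P = 0.0794), with values of 7.37, 7.35, 7.18 and 7.29 against 7.52, 7.43, 7.77, 7.36 and 7.33. The brighter VEGFR-1 probe read 7.83, 7.41, 8.31, 7.30 and 7.46 in hypoxia control against 7.52, 7.29, 7.20 and 7.29, a difference of -0.34 (exact permutation P = 0.143). Without hypoxia control replicate 3 the FLT-1 difference was -0.11 and no longer called, and that of the VEGFR-1 probe was -0.18. Though not called with all arrays, the VEGFR-1 difference was called, for example, without hypoxia control replicate 2 (-0.40) and without replicate 4 (-0.43). These replicates read 7.41 and 7.30, below their group mean of 7.66, so leaving either out necessarily enlarges the difference. The FLT-1 call was also lost without hypoxia control replicate 1 (-0.17) and without hypoxia + ketamine replicate 3 (-0.14) or 4 (-0.18). On each of these probes, as on FLT1, hypoxia control replicate 3 was the highest of its group. The other VEGFR-1 probe was well above background on a single array, hypoxia + ketamine replicate 4, where it read 8.23, while the partner that shares 39 of its bases read 7.29 there.

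**Figure D4:**
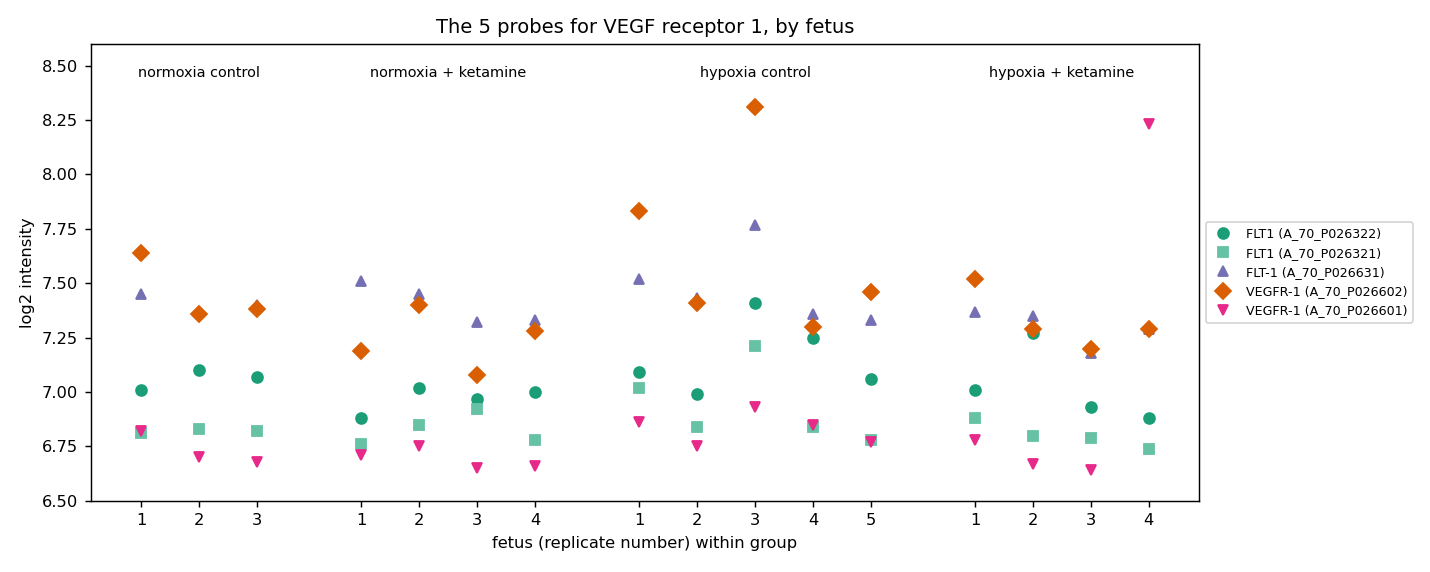
Log2 intensity (vertical axis, not starting at 0) of the 5 probes for VEGF receptor 1 in each fetus (horizontal axis, replicate number within group). Hypoxia control replicate 3 stands at 8.31, 7.77 and 7.41 on its 3 brightest probes, and 1 VEGFR-1 probe stands at 8.23 in hypoxia + ketamine replicate 4 alone.

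Of 36 genes listed for VEGF, angiopoietin and related vessel growth signalling, 16 have a named probe. Hypoxia control against normoxia control called 2 of them higher and 1 lower, beside 7.98% of all probes. FGF2, the basic fibroblast growth factor that drives growth of endothelium and glia, rose by 0.89 on the log2 scale (SE 0.37, limma P = 0.0282, adjusted P = 0.580, exact permutation P = 0.0357), from 9.58 ± 0.14 (SD) to 10.47 ± 0.57. Its groups did not overlap, as for 5.37% of the probes without a missing value. With ketamine after hypoxia FGF2 fell by 0.75 (limma P = 0.0413, exact permutation P = 0.143), to 9.72 ± 0.81. ARNT, the partner subunit of the hypoxia-inducible factors, rose by 0.15 after hypoxia (limma P = 0.0418, exact permutation P = 0.0357), at a level well above background on 7 arrays. NOS3, the endothelial nitric oxide synthase, fell after hypoxia by 0.41 (SE 0.19, limma P = 0.0471, exact permutation P = 0.179), from 8.72 ± 0.096 to 8.31 ± 0.41, and was 8.39 ± 0.27 in hypoxia + ketamine. VEGFA, the ligand of both receptors, differed by 0.17 after hypoxia (exact permutation P = 0.464) and by -0.24 with ketamine after hypoxia (P = 0.286). HIF1A, the oxygen-regulated subunit, differed by 0.25 after hypoxia (exact permutation P = 0.143), and PDGFB and ANGPT1, which act on pericytes and on the TEK receptor, by -0.12 and -0.026. The median of the 16 was 0.014 after hypoxia and -0.046 with ketamine after hypoxia, and the list holds both KDR and FLT1.

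Of 41 endothelial genes listed, 9 have a named probe, and NOS3 was the only 1 called, after hypoxia, where 7.98% of all probes were called. EDN1, the vasoconstrictor endothelin-1, differed by 0.50 (exact permutation P = 0.393), and the endothelial surface gene CD93 by -0.062 (P = 0.571). In normoxia + ketamine minus normoxia control 8 of the 9 endothelial genes were lower, but none was called, where 2.31% of all probes were. Their median was -0.071, and that of the named genes was 0.0097. Of 18 genes of pericytes and vascular smooth muscle only CNN1 has a named probe, and its difference after hypoxia was 0.22 (exact permutation P = 0.571). None of 14 basement membrane genes has 1.

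The barrier genes were also set against the endothelial genes of the same array. For this each probe was centred on its mean over the 16 arrays, and the mean of FLT1, KDR, PECAM1 and TIE1 was subtracted. On that scale the OCLN mean of the normoxia controls was 0.081 ± 0.080 (SD), and that of the ketamine fetuses in normoxia was 0.066 ± 0.081. The hypoxia controls averaged -0.27 ± 0.24 and lay between -0.66 and -0.085. With ketamine before hypoxia the mean was 0.21 ± 0.11, and the 4 fetuses lay between 0.077 and 0.35. The hypoxia controls were thus below every fetus of the other groups, whose lowest value was -0.0071, and the overlap seen in the OCLN levels was not present. The share of all probes that separate on this scale was not computed, so this separation has no background beside it. With PECAM1 and TIE1 alone as the base, the hypoxia controls lay between -0.47 and -0.026 and hypoxia + ketamine at 0.19, but the normoxia groups reached down to -0.081 and overlapped with the former. These values are a description without a test, and FLT1 in the base lies near background.

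**Figure D5:**
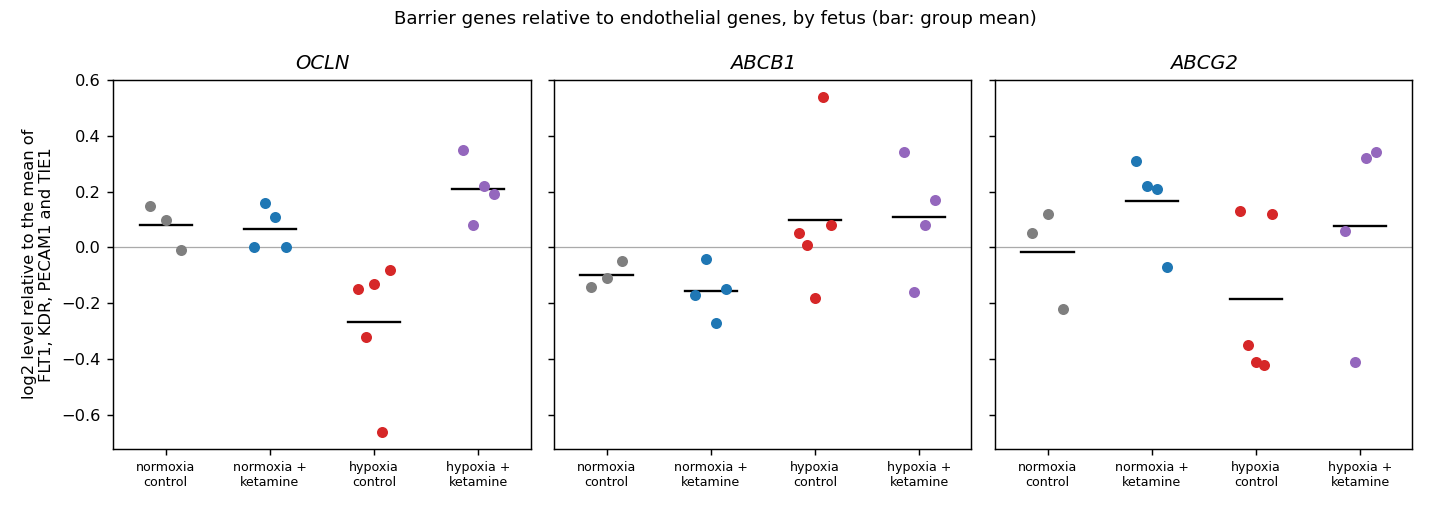
Log2 level of OCLN, ABCB1 and ABCG2 (vertical axis) after centring each probe on its mean over 16 arrays and subtracting the mean of FLT1, KDR, PECAM1 and TIE1, by fetus (points) and group mean (bars). For OCLN the 5 hypoxia controls lie between -0.66 and -0.085, under each other fetus, while the groups overlap for ABCB1 and ABCG2. The share of all probes that separate on this scale was not computed, and the OCLN separation was lost with PECAM1 and TIE1 alone as the base.

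On the same scale the ABCB1 means were -0.10 ± 0.045 for normoxia controls, -0.16 ± 0.095 with ketamine in normoxia, 0.099 ± 0.27 for hypoxia controls and 0.11 ± 0.21 with ketamine before hypoxia. Its highest value, 0.54, was that of a hypoxia control, and the hypoxia groups reached down to -0.18 and -0.16. ABCG2 was -0.016 ± 0.18, 0.17 ± 0.17, -0.19 ± 0.28 and 0.077 ± 0.35 in the same order, with overlap between all groups.

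Over the 16 arrays OCLN varied with ABCG2 (Pearson r = 0.672, and 0.661 after removing group means) and with PECAM1 (r = 0.651, and 0.817 after removing group means). ABCG2 and FLT1 ran in opposite directions (r = -0.69, and -0.62 after removing group means), and ABCB1 correlated with them at r = 0.081 and 0.083, and at 0.335 and -0.21 after removing group means. These are descriptions over arrays that share their normalization. Among 611 named genes that are well above background on all 16 arrays and no members of the 7, those most like OCLN were CAV1 (r = 0.760), TGFB1 (r = 0.748) and CXCR4 (r = 0.670). After removal of group means they were SLC9A3R1, CLDN3 and CAV1 (r = 0.810, 0.770 and 0.757). CAV1 also led for PECAM1, both with group means (r = 0.717) and without them (r = 0.784).

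Most like ABCB1 were FGF2 (r = 0.666), SLC12A4 and GRM5, and without group means EIF4GI, EIF3A and GLUT8. Most like ABCG2 were GJA4 (r = 0.745), CKB and PYGB, and without group means CKB, CTSD and SLC39A3. KDR was nearest to TF (r = 0.765), PURA and FCGRT, and without group means to VIM, GLUT8 and BGN. FLT1 was nearest to IGFBP3 (r = 0.686), LCK and VEGFA, and without group means to NEUROD1, CA11 and DBP. For TIE1 they were RPN2 (r = 0.722), PRKAR1A and SLC9A3R1, and without group means SLC9A3R1, CHCHD3 and RPN2. PECAM1 was followed after CAV1 by CTSD and ADORA3, and without group means by CDKN1C and PSAP. In 4 of the 7 genes, namely OCLN, ABCG2, PECAM1 and TIE1, at least 1 gene was among the 3 nearest by both measures.

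Some markers of other cell types were called between the same groups. Of all probes, 7.98% were called after hypoxia and 9.06% with ketamine after hypoxia. After hypoxia the choroid plexus gene TTR fell by 4.30 on the log2 scale (limma P = 0.0192, exact permutation P = 0.107), from 13.6 ± 3.7 (SD) in normoxia control to 9.32 ± 2.2 in hypoxia control, and it was 10.06 ± 2.3 in hypoxia + ketamine. The 3 normoxia controls already spanned 9.33 to 16.00 for TTR. The meningeal marker PTGDS also reached 16.00 in both normoxia groups, so that a ceiling there is possible and the size of the TTR fall is approximate. The other choroid plexus markers on the array were not called after hypoxia, with IGF2 at 0.42, IGFBP2 at 0.11 and AQP1 at -0.032. The mean level of the 4 choroid plexus markers on the array (of 10 listed) ran from 10.2 to 12.1 among normoxia controls and from 10.0 to 11.4 with ketamine in normoxia. After hypoxia it ran from 9.40 to 11.6 in the controls and from 9.61 to 11.0 with ketamine. The astrocyte gene GFAP rose after hypoxia by 0.79 (limma P = 0.000254, exact permutation P = 0.0357) and fell with ketamine after hypoxia by 0.54 (limma P = 0.00269, exact permutation P = 0.0635), while 3 further astrocyte markers of 9 listed were not called. The myeloid gene CD14 rose by 0.95 (limma P = 0.00168, exact permutation P = 0.0714) and fell by 0.60 (limma P = 0.0186, exact permutation P = 0.127), while ITGAM, the other such marker on the array, differed by -0.0057 and -0.035. The mean of the 2 microglia and macrophage markers on the array (of 15 listed) ran from 7.30 to 7.60 in normoxia control, 7.44 to 8.29 in hypoxia control and 7.44 to 7.78 in hypoxia + ketamine. Their part in the OCLN differences was not tested.

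Of the blood cell markers, the red cell gene AHSP rose after hypoxia by 0.89 (limma P = 0.0200, exact permutation P = 0.143), where 7.98% of all probes were called. It was 1 of 3 on the array of 14 listed, whose mean ran from 9.09 to 9.79 in normoxia control and 9.24 to 10.3 in hypoxia control. The neutrophil gene CATHL3 was higher by 2.90 in hypoxia + ketamine than in normoxia + ketamine (limma P = 0.0107, exact permutation P = 0.0286), where 6.86% of all probes were called. It was 1 of 2 on the array of 11 listed, whose mean ran from 7.35 to 8.02 and from 8.00 to 11.1 in those groups. Of 5 fibroblast and meningeal markers on the array (of 9 listed), 1 was called after hypoxia, where 7.98% of all probes were, and FBLN1 rose by 0.40. With ketamine after hypoxia 2 of the 5 were called lower, beside 9.06% of all probes, and FBLN1 fell by 0.33 and DCN by 0.66. In hypoxia + ketamine minus normoxia + ketamine 1 of the 5 was called lower, beside 6.86%. The mean of the 5 ran from 10.0 to 10.07 in normoxia control, 9.95 to 10.7 in hypoxia control and 9.85 to 9.95 in hypoxia + ketamine. TAC3, the only neuron marker of 14 with a named probe, fell in hypoxia control by 0.38 and in normoxia + ketamine by 0.40 against normoxia control. It was called in both, where 7.98% and 2.31% of all probes were. No listed platelet or oligodendrocyte marker has a named probe. Whether any of these cells bear on the values of PECAM1 or the barrier genes was not tested.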

How the data were processed

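The authors labelled frontal cortex RNA of 16 fetuses with cyanine 3 and hybridized it to 1-colour Agilent sheep arrays, on 2 slides that each hold all 4 groups. The deposited scanner files hold the intensity of each spot and its local background from Feature Extraction 10.1.1.1, per the file headers, before normalization between arrays. A deposited value table holds log2 values that the authors had background-corrected and quantile normalized in R 2.15.1 with limma, and it served as an alternative.

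Here the mean spot signal was corrected with normexp (offset 50) in limma 3.58.1 under R 4.3.3. Then 536 control spots and 222 spots flagged as outliers were left out, arrays were quantile normalized and spots of a probe were averaged. Of 15008 probes, 132 had a missing value, on which the fit used the other arrays, and none of these measures the 7 genes. Pairs of arrays correlated between 0.984 and 0.996, and their number limits the precision. Probes were named through the sheep RefSeq table by accession, symbol, older symbol or gene ID. A gene with several probes is represented by the one with the highest mean, and the others are given beside it. The files name no genome build, so no positions are printed.

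One coefficient per group was fitted over all 16 arrays with lmFit and eBayes, and the procedure was tested on simulated data. Exact permutation tests over fetuses were two-sided, with the smaller tail doubled. Named genes were the 7 members with all their probes, the called genes of the pathway and marker lists with up to 4 bright uncalled examples per list, and for each member the 3 genes most correlated with it. One listed gene is not reported here. The members and the lists were chosen with earlier results of these data known. Alternatives were other background corrections and scalings, a filter on dim probes, outlier spots kept, blocks for slide or replicate number, fits restricted to the groups of a comparison, the authors' values, hypoxia control replicate 1 in its other group, array weights, other probes, adjusted P and each array left out. Scaling to the 75th percentile without background correction and single arrays left out for 3 further VEGF receptor probes were added after the data had been seen.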

Additional observations from a re-analysis of the deposited data

Results flagged for a closer look

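In hypoxia + ketamine replicate 4 the VEGFR-1 probe A_70_P026601 read 8.23, far from the other fetuses of its group, whose median with it was 6.73. Dixon's gap was 0.913 of the group's range. In normoxia + ketamine replicate 4 a probe for LOC443516, which the files describe as a tie-2 receptor, read 7.95 where the group median was 7.00, with a gap of 0.936 of the range. Its partner, which shares 53 bases, read 7.13 on that array. In all, 57 groups of 19 probes were examined in this way and 2 had such a sample, where chance gives about 1 in 20 groups. For OCLN the effect of ketamine differed between the hypoxia and the normoxia fetuses by 0.54 on the log2 scale (limma's interaction term, n = 16, P = 0.0251, adjusted P = 0.752): hypoxia + ketamine fetuses were above the hypoxia control mean in 4 of 4 cases, and normoxia + ketamine fetuses were below the normoxia control mean in 4 of 4 cases. The normoxia + ketamine and normoxia control groups nevertheless overlapped, and their difference of -0.11 was not called.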

How the results depend on the processing

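The number of the 7 genes called, 1 for hypoxia control minus normoxia control, 0 for ketamine in normoxia, 1 for hypoxia + ketamine minus hypoxia control, 0 for hypoxia + ketamine minus normoxia + ketamine and 1 for the interaction, changed under 4 alternatives. After Benjamini-Hochberg adjustment, and with normexp scaled to the 75th percentile, it was 0 in each comparison where it had been 1, and OCLN then read -0.58, 0.67 and 1.15 under that scaling. That scaling moved the median of all probes by -0.16, 0.21 and 0.51 in these comparisons. On 3 arrays local background far above some spots (lowest difference -42480) had raised the 5th percentile of the corrected values to between 8.35 and 9.44, against 5.96 to 6.32 on the others. Without background correction the same scaling gave OCLN -0.31, 0.40 and 0.47, with 0 genes called after hypoxia and OCLN called in the others. With only the compared groups in the fit, 0 genes were called after hypoxia and 1, PECAM1 at -0.24, for ketamine in normoxia. When each array was left out in turn, between 0 and 1 genes were called after hypoxia, 0 for ketamine in normoxia, between 1 and 3 for ketamine after hypoxia, between 0 and 1 for hypoxia + ketamine minus normoxia + ketamine, and between 0 and 1 for the interaction. The 3 were OCLN, ABCG2 and FLT1, without hypoxia + ketamine replicate 2. With hypoxia control replicate 1 moved to normoxia + ketamine or left out, OCLN kept its calls. The cause of these changes was not tested. With the replicate block OCLN was -0.40, 0.51 and 0.56, all called, and the counts did not change. Deviations of arrays with the same replicate number correlated between -0.11 and 0.37. Those arrays also lie on the same slide, and nothing in the labels ties them to a shared ewe or day. No result turned its direction while called, but some uncalled differences turned under an alternative. FLT1 after hypoxia reached -0.16, while 14 of 15 alternatives kept its sign. KDR in hypoxia + ketamine minus normoxia + ketamine reached 0.41, while 15 of 16 kept its sign. For TIE1 after hypoxia 8 of 16 alternatives kept the sign. FLT1 failed the filter on dim probes, and its values are limited by signal over background.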
